A study of Homo sapiens with 16 samples.

Results

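The genes described here are 6 matrix metalloproteinases (MMP1, MMP2, MMP7, MMP10, MMP13 and MMP14), urokinase (PLAU), its receptor (PLAUR) and tissue plasminogen activator (PLAT). They were taken by symbol, and each of the 9 symbols matched 1 of the 60612 genes in the deposited table. All 9 were among the 17950 genes with enough counts to be tested. RNA was sequenced from NCI-H1944, an established human lung adenocarcinoma line. 4 versions of the line were used: SCR, which carries a control guide and is labelled WT, STINGsg (written STING here), which is labelled a STING knockout, MAVSsg (MAVS here), a MAVS knockout, and DKO, a STING/MAVS knockout. Each received either the MPS1 kinase inhibitor BAY-1217389 (MPS1i) at 100 nM or DMSO for 48 h, followed by 24 h without drug. This gave 8 groups of 2 libraries, 16 in all. The series asks which expression changes after the drug pulse depend on STING, which relays cytosolic DNA sensing, or on MAVS, which relays cytosolic RNA sensing. The labels do not say whether a line is 1 clone or a pool, nor whether both replicates of a group come from cultures grown apart, so p-values here measure only the spread between libraries of a group, pooled over the 8 groups, which may be technical.

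Matrix metalloproteinases are zinc-dependent enzymes that cut the extracellular matrix around a cell. Most are secreted as inactive precursors that other proteases cut to activate. The urokinase system works beside them: urokinase, held at the cell surface by its receptor, turns plasminogen into plasmin, and plasmin cuts fibrin, matrix proteins and some metalloproteinase precursors. Tissue plasminogen activator carries out the same conversion and is best known for dissolving fibrin clots. In lung carcinoma these genes are studied for their part in invasion, and several of them are classic targets of AP-1 and of inflammatory cytokines. In bulk RNA, fewer cells of a type and less RNA per cell cannot be told apart.

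Library totals ran from 19893784 to 49769938 counts. The chi-square per gene between the 2 libraries of a group, which grows with depth, was highest in DKO DMSO (8.96, against 2.73 to 5.86), while their correlation of log2 CPM (0.985) was above that of the STING DMSO libraries (0.982), the lowest. Levels are given as CPM, counts scaled to a common library total. STING1 RNA was lower in the STING line (3.74 ± 0.0573 CPM, SD, n = 2) and the DKO line (4.86 ± 0.0461) than in SCR (8.27 ± 0.0317) under DMSO. MAVS RNA was 195 ± 0.89 CPM in the MAVS line and 215 ± 9.83 in DKO, against 186 ± 4.28 in SCR, so the RNA level gives no check of the MAVS edit. Of 9 markers of lung epithelium, KRT8 (at least 1470 CPM), KRT18, KRT7 and CDH1 were abundant in all libraries and EPCAM lay between 2.18 and 5.69 CPM. The keratin KRT19 had at most 4 counts per library, and the lung markers NKX2-1, SFTPB and NAPSA at most 2, 3 and 11. Of 7 fibroblast markers, DCN, LUM and FAP were detected and COL1A2, PDGFRA, PDGFRB and THY1 had at most 13 counts per library. Macrophage markers summed to at most 1.52 CPM, with C1QA and C1QB at 0 counts in every library, and endothelial markers to at most 3.47 CPM.

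**Figure D1:**
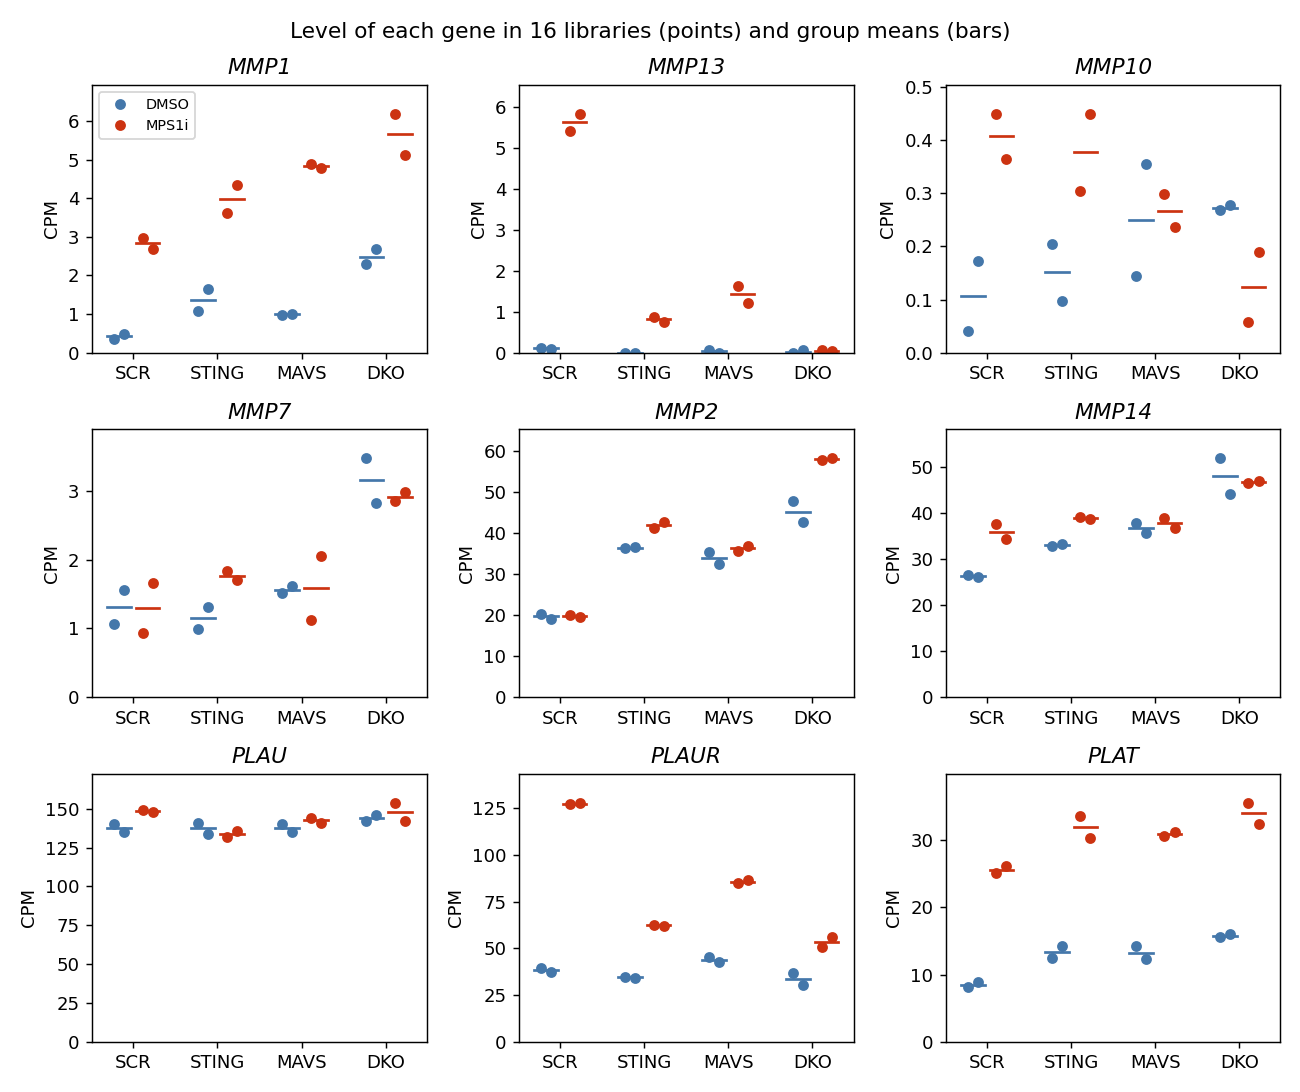
Level of each gene in CPM (counts scaled to a common library total, vertical axes starting at 0) by line, with 1 point per library and a short bar at the mean of each 2-library group, blue for DMSO and red for MPS1i. PLAU lies between 132 and 154 CPM in all 16 libraries, MMP13 reaches 5.85 CPM in SCR after MPS1i and is at most 0.0581 CPM in DKO, and MMP7 is highest in DKO.

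Per kilobase of exon, the urokinase gene PLAU had the highest level of the 9 genes in every group, from 45.4 ± 1.01 to 50.5 ± 0.212 CPM per kb (SD, n = 2). PLAUR came second in 7 of the 8 groups, at 8.62 ± 0.332 CPM per kb in SCR under DMSO and 28.5 ± 0.178 after MPS1i. In DKO under DMSO, MMP14 stood at 10.8 ± 1.23 and MMP2 at 9.16 ± 0.716 CPM per kb, above PLAUR at 7.52 ± 1.03. The secreted collagenases and stromelysin were scarce. MMP1 did not pass 2.87 ± 0.387 CPM per kb, MMP13 peaked at 1.99 ± 0.106 and MMP10 never passed 0.232 ± 0.0345.

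After MPS1i, 6 of the 9 genes rose in SCR and none fell (adjusted p under 0.05, edgeR quasi-likelihood test with Benjamini-Hochberg adjustment over all genes tested). They were MMP1, MMP13, MMP10, MMP14, PLAUR and PLAT. In the same comparison 26.0% of all tested genes rose and 24.0% fell. STING also had 6 rises and no fall, with MMP2 in place of MMP10, where 15.5% of all genes rose and 13.9% fell. MAVS had 4 rises (MMP1, MMP13, PLAUR and PLAT) and no fall, against 17.1% and 16.3% of all genes, and DKO had 4 rises (MMP1, MMP2, PLAUR and PLAT) and no fall, against 6.53% and 8.22%. The median log2 fold change of the 9 genes was 1.6 in SCR, 0.85 in STING and 0.16 in MAVS, and that of all genes lay between 0 and 0.03. In DKO it was 0.36, or 0.04 when MMP13, at or under 3 counts in every DKO library, was set to no change.

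**Figure D2:**
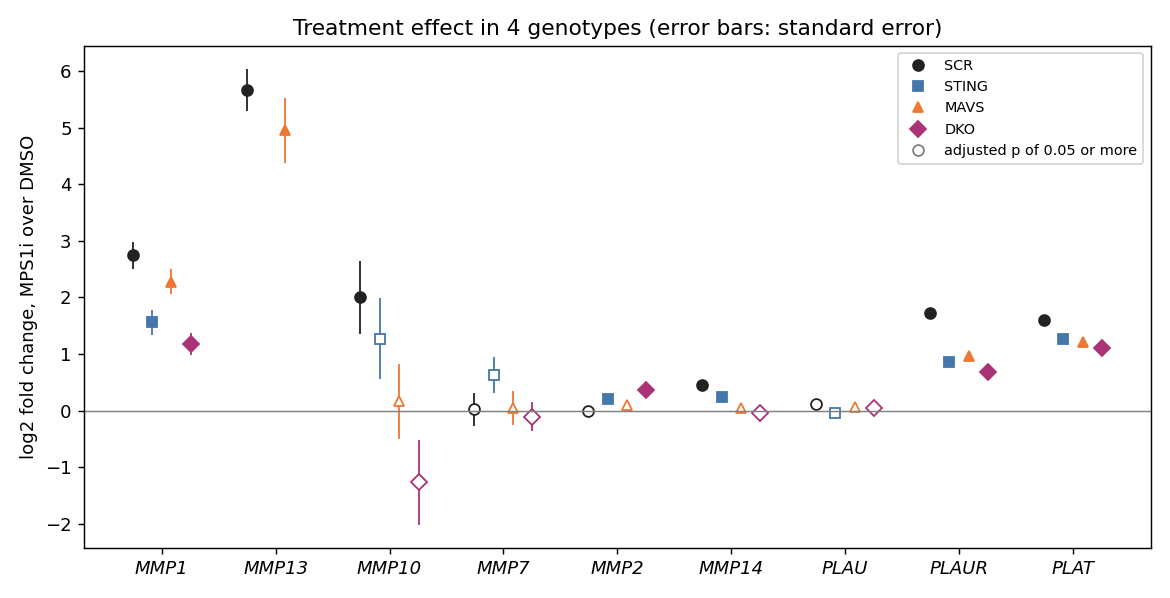
Log2 fold change of MPS1i over DMSO (vertical axis, with standard errors) for each gene in the 4 lines, with open symbols where the adjusted p was 0.05 or more. MMP13 is left out in STING, where both DMSO libraries held 0 counts, and in DKO, where no library held more than 2, and its MAVS value rests on DMSO libraries with 2 and 0 counts. MMP1, PLAUR and PLAT are filled in all 4 lines, and PLAU and MMP7 in none.

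MMP1 encodes interstitial collagenase, which cuts fibrillar collagens, and lies on the minus strand at chr11:102789401-102798160 (GRCh38). Its level rose after MPS1i in all 4 lines and was already higher under DMSO in each edited line than in SCR. The SCR libraries held 18 and 17 counts (0.365 and 0.491 CPM) under DMSO and 106 and 118 counts (2.98 and 2.69 CPM) after MPS1i. STING went from 1.07 and 1.65 to 3.62 and 4.33 CPM. MAVS went from 0.974 and 1.01 to 4.89 and 4.78 CPM. No DMSO library reached the level of an MPS1i library of its own line, and the 8 group means ran from SCR DMSO, the lowest, to DKO MPS1i, the highest, with overlap between neighbours only for SCR MPS1i and DKO DMSO. DKO held 2.29 and 2.69 CPM under DMSO and 6.19 and 5.11 CPM after MPS1i. The log2 rise was 2.74 ± 0.24 in SCR (adjusted p = 5.1e-10), 1.56 ± 0.22 in STING (5.3e-06), 2.28 ± 0.22 in MAVS (8.7e-09) and 1.18 ± 0.19 in DKO (5.5e-05).

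Against SCR under DMSO, MMP1 was higher by 1.67 ± 0.29 on the log2 scale in STING (adjusted p = 0.00033), 1.23 ± 0.31 in MAVS (0.014) and 2.57 ± 0.25 in DKO (1.2e-08). After MPS1i these gaps were smaller, at 0.49 ± 0.18 (0.042), 0.77 ± 0.18 (0.0028) and 1.01 ± 0.18 (4.6e-05). In mean CPM the STING and DKO gains were not smaller than the SCR gain. MMP1 went from 0.428 to 2.83 CPM in SCR, 1.36 to 3.98 in STING and 2.49 to 5.65 in DKO. On the log2 scale the rise after MPS1i was smaller than in SCR in STING (difference -1.18 ± 0.34, adjusted p = 0.016) and in DKO (-1.56 ± 0.31, 0.00041). DKO also rose less than MAVS on that scale (-1.1 ± 0.3, 0.015). The MAVS rise differed from that of SCR by -0.46 ± 0.35 (0.55). DKO had the highest mean MMP1 level of all groups after MPS1i. Several of these calls rested on single libraries. The MAVS difference under DMSO lost its call without SCR DMSO replicate 1 (adjusted p = 0.14), MAVS DMSO replicate 1 (0.12) or 2 (0.066), with libraries thinned to equal depth (0.82, 0.3) or with the other groups left out of the fit (0.056), and the smaller rise in STING without SCR DMSO replicate 1 (0.13) or STING DMSO replicate 2 (0.16), or after thinning (0.19). The STING difference after MPS1i lost it without any of 6 libraries in turn (SCR MPS1i replicates 1 and 2, STING MPS1i replicate 2, MAVS MPS1i replicates 1 and 2, DKO MPS1i replicate 1; adjusted p from 0.052 to 0.3), with no filter on low counts (0.073), after thinning (0.12) and with DESeq2 (0.15), the MAVS difference after MPS1i without SCR MPS1i replicate 2 (0.062), and the DKO against MAVS difference without MAVS DMSO replicate 1 (0.088), DKO DMSO replicate 2 (0.066) or DKO MPS1i replicate 2 (0.061) and with DESeq2 (0.057).

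MMP13 encodes another collagenase, known from cartilage and bone (chr11:102942995-102955732, minus strand). It was near 0 counts under DMSO in all lines and rose after MPS1i in SCR, STING and MAVS. SCR libraries held 6 and 3 counts under DMSO and 193 and 257 after MPS1i (5.43 and 5.85 CPM). STING had 0 counts in both DMSO libraries and 23 and 22 counts after MPS1i, at least 6.09-fold higher than a floor of 3 counts per library. MAVS went from 2 and 0 counts to 55 and 46. The 2 DKO groups held 0 and 2 counts under DMSO and 2 and 1 after MPS1i, so no fold was computed and a change was not detectable at this depth. As ratios of counts scaled to library size, the rise was 52.8-fold in SCR (exact 95% counting interval 27.6 to 116; adjusted p = 3.4e-12, edgeR) and 33.4-fold in MAVS (9.02 to 280; 1.9e-07).

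After MPS1i, MMP13 was lower than in SCR, with a log2 fold change of -2.78 ± 0.29 in STING (adjusted p = 4.6e-08) and -1.99 ± 0.26 in MAVS (4.8e-06). DKO had 3 counts where SCR had 450, a ratio of 0.00953 (exact 95% counting interval 0.00196 to 0.028; adjusted p = 8.9e-12, edgeR). None of the 3 lines overlapped SCR there, nor did STING, MAVS and DKO overlap each other. The difference in drug effect passed the threshold only for DKO against SCR, with a fitted log2 value of -4.99 ± 1.54 (0.017) that depends on DKO groups with at most 2 counts per library. That call was lost without DKO DMSO replicate 2 (adjusted p = 0.9) and with libraries thinned to equal depth (0.11). Without DKO DMSO replicate 1, the DKO effect was also called lower than that of STING (0.027) and MAVS (0.042). Since the DMSO groups hold almost no counts, the tests of these differences carry large errors: the STING and MAVS values missed the threshold (0.47 and 0.84). Under DMSO, STING was called lower than SCR when either DKO DMSO library was left out (0.046 and 0.044, against 0.053 with all libraries), a comparison of 0 counts with 9.

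MMP10 encodes stromelysin 2, which cuts proteoglycans and fibronectin and activates other metalloproteinases. It lies beside MMP1 (chr11:102770502-102780628, minus strand) and had between 2 and 16 counts in each library. SCR held 2 and 6 counts under DMSO and 16 and 16 after MPS1i, with no overlap. DKO held 7 and 10 counts under DMSO and 2 and 4 after MPS1i. MMP10 rose in SCR by 2 ± 0.65 (log2, adjusted p = 0.012), or 4.22-fold in scaled counts (exact 95% counting interval 1.91 to 10.6). It was lower in DKO than in SCR after MPS1i (log2 fold change -1.83 ± 0.7, 0.034), and the drug effect in DKO differed from that in SCR by -3.27 ± 0.99 (0.014). The DKO effect alone was -1.27 ± 0.75 (0.3), and STING and MAVS showed no called change (0.19 and 0.88). At these counts single libraries decided the calls. The SCR rise was lost without SCR DMSO replicate 1 (log2 fold change 1.2, adjusted p = 0.21) or SCR MPS1i replicate 1 (0.061) and with DESeq2 (0.068), the DKO level difference without SCR MPS1i replicate 1 (0.12) or 2 (0.064) or DKO MPS1i replicate 1 (-1.09, 0.35), with no filter on low counts (0.062), after thinning (0.15) and with DESeq2 (0.13), and the difference in effects without SCR DMSO replicate 1 (0.089) or DKO MPS1i replicate 1 (0.098).

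MMP7 encodes matrilysin, a small metalloproteinase made by epithelial cells (chr11:102520508-102530750, minus strand). It was highest in DKO and showed no called response to the drug. SCR held 1.07 and 1.56 CPM under DMSO and 0.928 and 1.66 CPM after MPS1i, whereas DKO held 3.48 and 2.83 CPM and then 2.85 and 2.98 CPM. The 4 DKO libraries lay above all 12 others, the highest of which was a MAVS MPS1i library at 2.05 CPM. DKO exceeded SCR by 1.27 ± 0.27 under DMSO (log2, adjusted p = 7e-04) and by 1.14 ± 0.28 after MPS1i (0.0013). No effect of MPS1i was called for MMP7 in any line (adjusted p from 0.15 in STING to 0.97 in SCR). Nor was any difference of STING or MAVS from SCR called (0.29 to 0.78). After MPS1i, both STING libraries (1.83 and 1.7 CPM) lay above both SCR libraries.

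MMP2 encodes a gelatinase that cuts denatured and basement membrane collagen (chr16:55389700-55506691, plus strand). It was higher in every edited line than in SCR, and SCR did not respond to the drug. SCR held 20.2 and 19.1 CPM under DMSO and 20 and 19.4 CPM after MPS1i, a log2 fold change of 0 ± 0.07 (adjusted p = 0.98). STING held 36.2 and 36.6 CPM under DMSO and MAVS 35.4 and 32.5, while DKO held 47.7 and 42.7. After MPS1i STING held 41.3 and 42.6 CPM, MAVS 35.6 and 36.9, and DKO 57.7 and 58.2. Every library of an edited line lay above all 4 SCR libraries. Under DMSO the log2 difference from SCR was 0.89 ± 0.07 in STING (1.8e-09), 0.79 ± 0.07 in MAVS (8.3e-08) and 1.2 ± 0.07 in DKO (7.3e-13), and after MPS1i it was 1.09 ± 0.07 (3.6e-12), 0.88 ± 0.07 (6.8e-10) and 1.56 ± 0.07 (6.5e-16).

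MPS1i raised MMP2 further in DKO (0.36 ± 0.07, log2, adjusted p = 3e-04) and in STING (0.21 ± 0.07, 0.027), and the DKO rise differed from the SCR effect by 0.36 ± 0.1 (0.0062), or 0.27 with libraries thinned to equal depth (0.084). This was the 1 member of the set whose drug effect was called larger in DKO than in SCR. The STING rise lost its call without either STING DMSO library (adjusted p = 0.12 and 0.09) or either STING MPS1i library (0.06 and 0.15), with DESeq2 (0.061) and with no filter on low counts (0.066). The DKO effect differed from that of MAVS by 0.27 ± 0.1 (0.071), which passed without DKO DMSO replicate 1 (0.37, 0.0097).

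MMP14 encodes a membrane-anchored metalloproteinase that activates the MMP2 precursor at the cell surface (chr14:22836560-22849041, plus strand). Under DMSO it stood in the same order as MMP2 at the ends, lowest in SCR and highest in DKO. SCR held 26.6 and 26.1 CPM under DMSO and 37.6 and 34.3 CPM after MPS1i, while DKO held 51.9 and 44.2 and then 46.5 and 46.9 CPM. STING went from 32.8 and 33.2 to 39.1 and 38.6 CPM, and MAVS from 37.8 and 35.7 to 38.9 and 36.8. After MPS1i the SCR level lay close to those of MAVS and STING, with the 4 groups from STING MPS1i down to SCR MPS1i overlapping their neighbours. The rise was 0.45 ± 0.07 in SCR (log2, adjusted p = 1.1e-05) and 0.24 ± 0.08 in STING (0.02), against 0.04 ± 0.07 in MAVS (0.72) and -0.04 ± 0.07 in DKO (0.8). The difference from the SCR effect was -0.41 ± 0.1 in MAVS (0.013) and -0.48 ± 0.1 in DKO (0.00062).

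Against SCR under DMSO, MMP14 was higher by 0.32 ± 0.08 in STING (log2, adjusted p = 0.0057), 0.48 ± 0.07 in MAVS (0.00018) and 0.86 ± 0.07 in DKO (8e-10). After MPS1i only the DKO difference passed the threshold (0.38 ± 0.07, 9.4e-05). The STING rise in MMP14 was lost without either STING DMSO library (0.1 and 0.075) or either STING MPS1i library (0.088 and 0.071), the STING difference under DMSO without STING DMSO replicate 2 (0.055), and the lower MAVS effect without SCR MPS1i replicate 1 (0.083), MAVS DMSO replicate 1 (0.093) or MAVS MPS1i replicate 2 (0.075). The drug effects on MMP14 in DKO and STING differed when DKO DMSO replicate 2 was left out (-0.39, 0.016), against -0.27 ± 0.1 (0.17) with all libraries. The summed level of 7 fibroblast markers was 27 to 28 CPM in SCR under DMSO, 46.2 to 49.9 in DKO under DMSO and 35.2 to 40 in SCR after MPS1i, carried by DCN, LUM and FAP. Of the 3 markers with enough counts to be tested, DCN (1.03 ± 0.09) and FAP (1.4 ± 0.12) were higher in DKO than in SCR under DMSO, as MMP2 and MMP14 were. In DKO after MPS1i the sum was 49.6 to 53.1 CPM. Of the 3 tested markers, 1 was called higher there after the drug and 0 lower, while FAP went from 13.7 ± 0.53 to 11.5 ± 1.27 CPM. In SCR the sum was higher after MPS1i, as MMP14 was and MMP2 was not. COL1A2 and PDGFRA had at most 2 counts in any library. The part of these genes in the MMP2 and MMP14 results was not tested.

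PLAU encodes urokinase (chr10:73909177-73917496, plus strand). Its level lay between 132 and 154 CPM in the 16 libraries. SCR held 140 and 135 CPM under DMSO and 149 and 148 CPM after MPS1i, without overlap, a log2 fold change of 0.11 ± 0.05 that missed the threshold (adjusted p = 0.054). It passed without STING MPS1i replicate 1 (0.031), DKO DMSO replicate 2 (0.036), or DKO MPS1i replicate 1 (0.024) or 2 (0.025), with a filter of at least 1 CPM in at least 2 libraries (0.13, 0.019) and with the replicate number as a block (0.049). After MPS1i PLAU was lower in STING (132 and 136 CPM) than in SCR (log2 fold change -0.15 ± 0.05, 0.015), a call lost without SCR MPS1i replicate 1 (0.051) or STING MPS1i replicate 1 (0.098), or after thinning (0.055). No other comparison of PLAU was called.

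PLAUR encodes the urokinase receptor, a protein tethered to the outer face of the cell by a lipid anchor (chr19:43646095-43670547, minus strand). It rose in all 4 lines, most in SCR, and the rise in SCR exceeded that in each edited line. SCR held 39.5 and 37.4 CPM under DMSO and 127 and 128 CPM after MPS1i. STING went from 34.8 and 34.2 to 62.4 and 62.2 CPM, and MAVS from 45.3 and 42.5 to 84.7 and 86.4 CPM. DKO held 36.8 and 30.3 CPM under DMSO and 50.9 and 56.3 CPM after MPS1i. Every MPS1i library lay above every DMSO library of any line, and the order after the drug was SCR, MAVS, STING and DKO, with no overlap between neighbours. The log2 rise was 0.85 ± 0.07 in STING (adjusted p = 1.2e-09), 0.96 ± 0.07 in MAVS (3e-11) and 0.68 ± 0.07 in DKO (1.5e-07), each smaller than in SCR (log2 differences -0.87 ± 0.1, 3.8e-07; -0.76 ± 0.1, 4e-06; and -1.05 ± 0.1, 5.1e-09).

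Among the edited lines no difference in the PLAUR rise passed the threshold: DKO minus STING was -0.17 ± 0.1 (adjusted p = 0.44), DKO minus MAVS -0.28 ± 0.1 (0.072) and STING minus MAVS -0.11 ± 0.1 (0.64). Without DKO DMSO replicate 2, where PLAUR was lower than in replicate 1, the first 2 passed (-0.32, 0.041 and -0.42, 0.0019), and without DKO MPS1i replicate 2 the second did (-0.35, 0.048), as it did with no filter on low counts (0.04) and after thinning (-0.37, 0.012). Levels after MPS1i were below SCR in STING (log2 fold change -1.03 ± 0.07, 3.8e-12), MAVS (-0.57 ± 0.06, 2.8e-07) and DKO (-1.25 ± 0.07, 3.5e-14). Under DMSO the differences from SCR were small: -0.16 ± 0.07 in STING (0.19), 0.19 ± 0.07 in MAVS (0.11) and -0.21 ± 0.07 in DKO (0.03). The DKO call was lost without SCR DMSO replicate 1 (-0.16, 0.19) or DKO DMSO replicate 2 (-0.06, 0.55), after thinning (0.22) and in a fit of the 4 compared libraries alone (0.16), and the MAVS difference was called without DKO DMSO replicate 1 (0.029) or 2 (0.034).

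PLAT encodes tissue plasminogen activator (chr8:42174718-42207709, minus strand). Like MMP1, it rose in all 4 lines and was higher in the edited lines than in SCR under DMSO and after MPS1i. SCR held 8.15 and 8.87 CPM under DMSO and 25.1 and 26.1 CPM after MPS1i. STING went from 12.4 and 14.2 to 33.6 and 30.4 CPM, and MAVS from 14.2 and 12.3 to 30.6 and 31.2 CPM. DKO held 15.6 and 16 CPM under DMSO and 35.6 and 32.4 CPM after MPS1i. The MPS1i libraries all lay above the DMSO libraries, and STING and MAVS overlapped in both conditions. The log2 rise was 1.6 ± 0.09 in SCR (adjusted p = 5.7e-14), 1.27 ± 0.09 in STING (3.8e-11), 1.21 ± 0.09 in MAVS (4.4e-11) and 1.11 ± 0.09 in DKO (7.3e-10).

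In mean CPM the PLAT gain in DKO was not smaller than in SCR, going from 15.8 to 34 against 8.51 to 25.6. On the log2 scale, from a higher DMSO level, the DKO rise was called smaller than in SCR (-0.49 ± 0.12, adjusted p = 0.0037), with -0.32 ± 0.13 in STING (0.079) and -0.38 ± 0.13 in MAVS (0.067). The STING value passed without STING MPS1i replicate 1 (-0.41, 0.046), and the MAVS value without MAVS DMSO replicate 2 (-0.48, 0.04), DKO DMSO replicate 1 (0.044) or DKO DMSO replicate 2 (0.046), with the filter of at least 1 CPM (0.048) or with the other groups left out of the fit (0.043). Under DMSO, PLAT exceeded SCR by 0.64 ± 0.1 in STING (log2, 8.6e-05), 0.66 ± 0.1 in MAVS (0.00011) and 0.9 ± 0.09 in DKO (3.7e-08). After MPS1i the gaps were 0.32 ± 0.08 (0.003), 0.27 ± 0.08 (0.018) and 0.41 ± 0.08 (0.00015). The STING gap after MPS1i lost its call without STING MPS1i replicate 1 (0.079), and the MAVS gap without either SCR MPS1i library (0.15 and 0.077) or either MAVS MPS1i library (0.075 and 0.12).

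Seen by line, no more than 1 of the 9 genes was called lower than in SCR under DMSO, and the counts here are of calls. STING and MAVS each had 4 higher genes (MMP1, MMP2, MMP14 and PLAT) and none lower, where 4.70% and 3.98% of all tested genes were higher and 5.47% and 2.57% lower. DKO had 5 higher, the same 4 and MMP7, where 15.8% of all genes were higher, and 1 lower, PLAUR, where 15.3% were lower. After MPS1i the directions split. STING had 3 higher (MMP1, MMP2 and PLAT) and 3 lower (MMP13, PLAU and PLAUR), against 15.8% and 17.3% of all genes. MAVS had the same 3 higher and 2 lower (MMP13 and PLAUR), against 7.46% and 8.47%. DKO had 5 higher (MMP1, MMP7, MMP2, MMP14 and PLAT) and 3 lower (MMP13, MMP10 and PLAUR), against 22.6% and 22.4%. The comparisons share the SCR libraries, so they are not independent of each other.

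**Figure D3:**
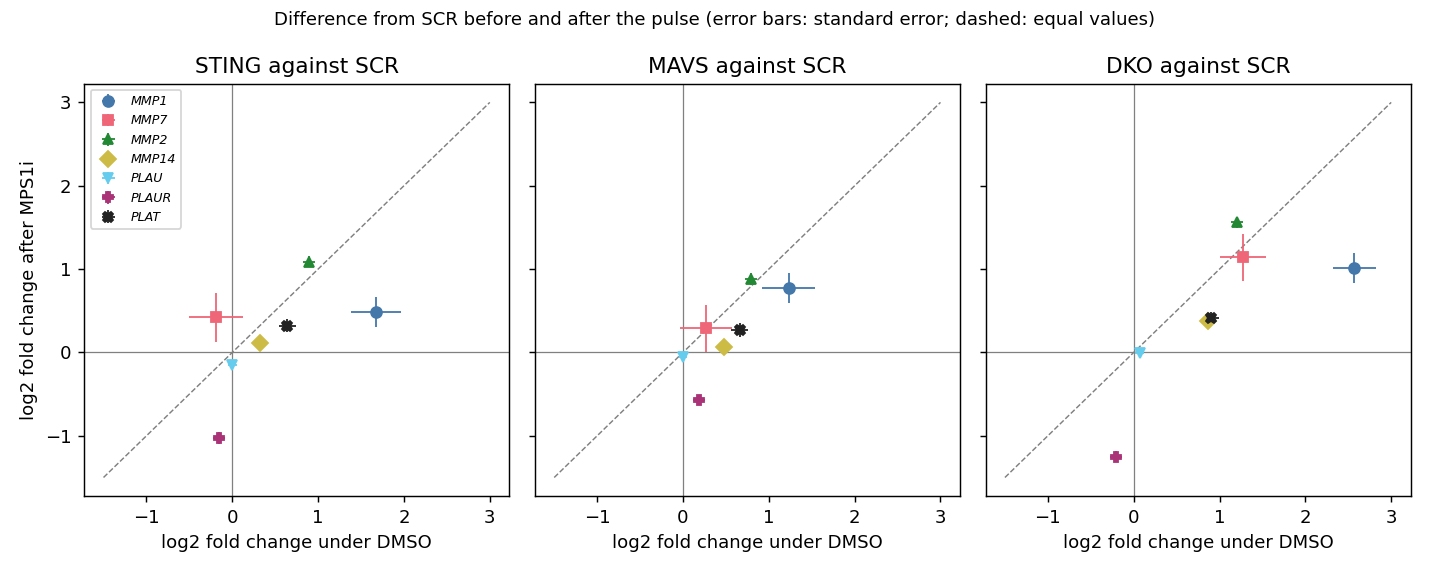
Log2 fold change of each edited line against SCR under DMSO (horizontal axis) and after MPS1i (vertical axis) for 7 genes, with standard errors and a dashed line of equal values. MMP13 and MMP10 are left out for their low counts. MMP1 lies below the dashed line in all 3 panels, MMP2 lies above it, and PLAUR is below 0 after MPS1i.

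Tested as differences between drug effects on the log2 scale, 7 of the 9 genes were called in DKO against SCR. MMP1, MMP13, MMP10, MMP14, PLAUR and PLAT had a lower effect in DKO, where 14.5% of all genes did, and MMP2 had a higher one, where 13.5% did. STING against SCR gave 2 lower effects (MMP1 and PLAUR) and no higher one, against 9.55% and 9.97% of all genes, or 1 to 3 called genes when single libraries were left out, as given above for MMP1 and PLAT. MAVS against SCR also gave 2 lower (MMP14 and PLAUR) and none higher, against 4.52% and 2.92%, with 1 to 3 on leaving out libraries, as given for MMP14 and PLAT. DKO against MAVS gave 1 lower (MMP1) and none higher, against 6.41% and 4.97%, and 0 to 3 without single libraries. DKO against STING gave none at a background of 4.72% called in either direction, and STING against MAVS none at 3.90%. At an unadjusted p under 0.05, MMP13, MMP10 and MMP14 differed between DKO and STING and MMP1 between STING and MAVS, and DESeq2 called none of those to which it gave an adjusted p. It gave none to MMP13, MMP10 and MMP7 in the first, nor to these 3 and MMP1 in the second.

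Promoter stretches are shown for 4 of the genes because their responses differ: PLAUR rose in every line, MMP14 rose in SCR and STING, MMP10 in SCR, and MMP7 in none. Bases are from RefSeq's promoter table (GRCh38.p14), which matched 5 of the 9 genes with 6 start sites (MMP10, MMP7, MMP14, PLAUR and 2 for PLAU) and did not hold MMP1, MMP13, MMP2 or PLAT. The 250 bases before each start were searched on both strands for an AP-1 site (TGACTCA), a CRE (TGACGTCA), a kB site (GGGNNTTTCC) and an ISRE (TTTCNNTTTC), where N is any base. These occur in 4.2%, 1.65%, 1.73% and 3.02% of the 35116 promoters in the table, and the motifs do not overlap each other in the printed stretches. Each stretch runs 5′ to 3′ on the gene's strand, with AP-1 matches in capitals, and leaves out bases inside an annotated exon, except for PLAUR, where 30 bases around the match are shown (chr19:43670337-43670366, minus strand). The others are MMP7 (chr11:102530754-102530997, minus strand), MMP10 (chr11:102780629-102780878, minus strand) and MMP14 (chr14:22836335-22836556, plus strand).
PLAUR: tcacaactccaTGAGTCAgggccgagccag
MMP7: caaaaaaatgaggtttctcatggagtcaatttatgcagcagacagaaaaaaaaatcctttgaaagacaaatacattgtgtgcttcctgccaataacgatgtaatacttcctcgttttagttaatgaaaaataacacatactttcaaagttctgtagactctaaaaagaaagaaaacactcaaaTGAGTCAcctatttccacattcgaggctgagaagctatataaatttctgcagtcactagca
MMP10: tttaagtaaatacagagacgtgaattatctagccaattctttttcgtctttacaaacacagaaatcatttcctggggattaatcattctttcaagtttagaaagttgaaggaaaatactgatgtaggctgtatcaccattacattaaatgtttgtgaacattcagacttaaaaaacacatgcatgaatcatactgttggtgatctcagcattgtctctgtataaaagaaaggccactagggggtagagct
MMP14: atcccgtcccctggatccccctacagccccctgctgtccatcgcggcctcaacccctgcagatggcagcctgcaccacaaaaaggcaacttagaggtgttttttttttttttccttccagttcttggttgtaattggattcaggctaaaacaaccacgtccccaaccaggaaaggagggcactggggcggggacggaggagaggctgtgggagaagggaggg

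The match TGAGTCA, the AP-1 site read on the other strand, lay 186 to 180 bases before the PLAUR start and 67 to 61 bases before the MMP7 start. No match to the 4 motifs was found before MMP10, MMP14 or either PLAU start. The part of these matches in the drug responses was not tested, and MMP1, MMP13, MMP2 and PLAT had no promoter to search.

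Lists of related genes were chosen with earlier results of these data known. A count called after MPS1i that exceeds the share of all genes may therefore reflect that choice, and is given as a description. Of all tested genes, 26.0% rose and 24.0% fell in SCR, 15.5% and 13.9% in STING, 17.1% and 16.3% in MAVS, and 6.53% and 8.22% in DKO. All 8 tested cytokines and growth factors rose in SCR, STING and MAVS and 5 of 8 in DKO, with median log2 fold changes of 1.26, 0.95, 1.06 and 0.32 against medians of 0 to 0.03 over all genes. IL6 went from 9.63 ± 0.862 to 126 ± 3.21 CPM in SCR (SD, n = 2) and from 30.5 ± 0.139 to 36.4 ± 0.684 in DKO, and EREG, an EGF receptor ligand, from 123 ± 9.43 to 326 ± 35.9 and from 102 ± 3.07 to 132 ± 2. Of 12 AP-1 and ETS factors, 9 rose and 2 fell in SCR (median 0.77), 7 rose and 1 fell in STING (0.48), 9 rose and 1 fell in MAVS (0.64), and 4 rose and 1 fell in DKO (0.17). JUN rose by 2.21 ± 0.08 in SCR (log2, adjusted p = 2.4e-17) and 1.04 ± 0.09 in DKO (3e-09), a difference of -1.17 ± 0.12 (3.5e-08). ATF3 rose by 1.54 ± 0.08 in SCR (1.2e-14), with 0.06 ± 0.1 in DKO (0.76).

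**Figure D4:**
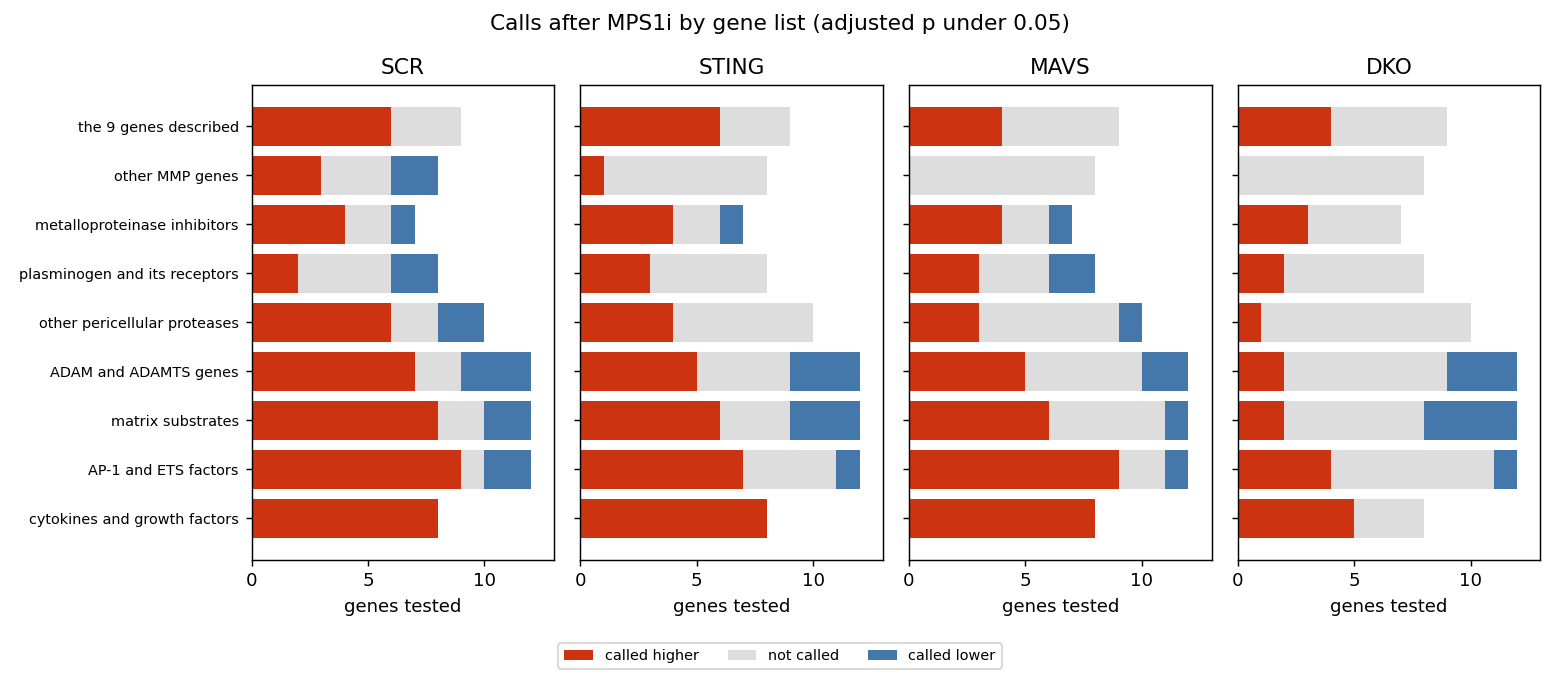
Number of tested genes (horizontal axes) called higher (red), not called (grey) or called lower (blue) after MPS1i in each line, for the 9 genes and 8 lists of related genes. All 8 cytokines and growth factors are red in SCR, STING and MAVS and 5 of 8 in DKO, and none of 8 other MMP genes is called in MAVS or DKO.

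Of 7 metalloproteinase inhibitors, 4 rose and 1 fell in SCR (median log2 fold change 0.67), in STING (0.35) and in MAVS (0.45), and 3 rose in DKO (0.54). TIMP3, a matrix-bound inhibitor, went from 53.9 ± 0.841 to 171 ± 0.881 CPM in SCR and from 65.5 ± 0.83 to 114 ± 2.15 in DKO, a rise smaller in DKO (log2 difference -0.87 ± 0.07, adjusted p = 3.8e-10). TIMP1 rose by 0.67 ± 0.08 in SCR (6.5e-07) and 0.54 ± 0.08 in DKO (7.7e-05), which differed by -0.13 ± 0.11 (0.44). SERPINB2, a serpin that inhibits urokinase, had 0 counts in both SCR DMSO libraries and 9 and 23 after MPS1i (0.0017).

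Of 8 other tested MMP genes, 3 rose and 2 fell in SCR (median log2 fold change 0.45), 1 rose in STING (0.55), and none was called in MAVS (0.06) or DKO (0.14). MMP16, a membrane-type enzyme, fell in SCR from 47.6 ± 1.67 to 33.3 ± 1.54 CPM (-0.51 ± 0.06, adjusted p = 5.3e-08), with 65.8 ± 2.96 and 71.6 ± 2.33 CPM in DKO. Of 8 genes of plasminogen, its surface receptors and clearance, 2 rose and 2 fell in SCR (0.06), 3 rose in STING (0.15), 3 rose and 2 fell in MAVS (-0.01) and 2 rose in DKO (0.01). In SCR these shares were near those of all genes. VTN, the matrix protein vitronectin that binds the urokinase receptor, rose from 3.74 ± 0.103 to 13.2 ± 0.517 CPM in SCR and from 4.53 ± 0.234 to 9.81 ± 0.499 in DKO, whereas IGF2R fell in SCR (-0.43 ± 0.04, 5.9e-09). Among 10 other pericellular proteases and inhibitors, 6 rose and 2 fell in SCR (0.37), 4 rose in STING (0.25), 3 rose and 1 fell in MAVS (0.14) and 1 rose in DKO (0). The protease cathepsin L (CTSL) rose from 564 ± 23.8 to 975 ± 46 CPM in SCR, with 576 ± 2.94 and 547 ± 7.33 in DKO.

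Of 12 ADAM and ADAMTS genes, 7 rose and 3 fell in SCR (median log2 fold change 0.51), 5 rose and 3 fell in STING (0.27), 5 rose and 2 fell in MAVS (0.22), and 2 rose and 3 fell in DKO (0.06). ADAMTS9, a proteoglycan-cutting enzyme, rose by 1.29 ± 0.06 in SCR (adjusted p = 1.7e-15), against 0.09 ± 0.06 in DKO (0.36). Of 12 matrix substrates, 8 rose and 2 fell in SCR (0.55), 6 rose and 3 fell in STING (0.12), 6 rose and 1 fell in MAVS (0.32), and 2 rose and 4 fell in DKO (0.06). COL4A1, a basement membrane collagen chain, rose in SCR from 151 ± 0.154 to 234 ± 7.41 CPM and fell in DKO from 226 ± 0.241 to 175 ± 11.2 CPM, a difference of effects of -1 ± 0.07 (9.7e-12). FN1, fibronectin, stood at 45.7 ± 0.347 CPM in SCR and 162 ± 3.26 in DKO under DMSO, and at 122 ± 3.23 and 175 ± 3.64 after MPS1i.

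Across the 8 group means, the log2 levels of MMP1 and PLAT had the highest correlation among pairs of the 9 genes (Pearson r = 0.96), followed by MMP13 and PLAUR (0.94). MMP13 held at most 6 counts per library under DMSO and at most 2 in DKO after MPS1i. Its correlation therefore rests largely on SCR, STING and MAVS after MPS1i set against groups near 0 counts. Among 12328 other protein-coding genes, those most like MMP1 were SPARC (0.997), KCNC4 (0.989) and CAP1 (0.989), and those most like PLAUR were PIP5K1A (0.996), IL15RA (0.994) and AMER1 (0.993). MMP14 was most like ARHGEF25 (0.99), IGFBP4 (0.984) and FGFR1 (0.982), MMP2 most like TBC1D17 (0.99), and PLAT most like CRYBG2 (0.997). MMP10 (ARAF, 0.933) and PLAU (MR1, 0.943) had the lowest best match. These values describe 8 points that share libraries and depth, and each of the 9 genes had a best match of at least 0.933.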

How the data were processed

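Raw counts, 1 column of whole numbers for each of the 16 libraries, were deposited by the authors. Stranded libraries were made from poly(A)-selected RNA, per the labels' protocols. Per the submitters' processing notes, the authors used Trim Galore, Trimmomatic, cutadapt, STAR and featureCounts with GRCh38/hg38. Versions, the strand setting and the treatment of reads with several matches are not given in the sources used here, so reads of WTAPP1 (antisense to MMP1 and MMP10, at most 10 counts per library) and C10orf55 (antisense to PLAU, at most 37) cannot be told apart from those genes' own.

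The 9 genes and all lists were chosen with earlier results of these data known. Genes were kept with edgeR 4.0.16's filterByExpr (minimum count 10, minimum total 15; R 4.3.3), TMM factors were computed, and a quasi-likelihood model with 1 mean per group (8 residual degrees of freedom) was fitted to all 17950 kept genes. There were 16 contrasts: 4 drug effects, 6 line differences and 6 differences of drug effects. Values of p are two-sided and adjusted by Benjamini-Hochberg within a contrast, with calls under 0.05. CPM use TMM-scaled totals. The number after ± is an SD beside a level and a standard error (the absolute log2 fold change over the square root of F) beside a fold change. Levels per kb use summed exons of GENCODE 29. Groups at 0 counts were set to a floor of 3 counts per library. Such floors and intervals cover counting error only. Simulated data with known changes were used to test the fit. Besides the 9 genes, up to 3 genes per list with the smallest adjusted p in SCR could be named, and for each of the 9 the 3 most correlated genes. Alternatives were DESeq2 1.42.0, RLE factors, other filters, thinning to equal depth, only the compared groups, a replicate block, and leaving out each library. A list of plasminogen activator inhibitors is not reported here as a group.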

Additional observations from a re-analysis of the deposited data

Results flagged for a closer look

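In 12 cases the effect of MPS1i on 1 of the 9 genes differed between lines by a test of the difference itself (the interaction term of the edgeR quasi-likelihood fit, adjusted p under 0.05). All values are differences of log2 fold changes.

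PLAUR, the urokinase receptor, had a smaller rise than in SCR in all 3 edited lines, by -0.87 in STING, -0.76 in MAVS and -1.05 in DKO. These 3 share the SCR libraries. MMP1 had a smaller log2 rise in STING than in SCR (-1.18), in DKO than in SCR (-1.56) and in DKO than in MAVS (-1.1). Its DMSO level was higher in STING and DKO than in SCR, and its level after MPS1i was highest in DKO. The drug effect on MMP14 was lower than in SCR in MAVS (-0.41) and in DKO (-0.48), and MMP14 was called changed by the drug in neither.

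PLAT had a smaller log2 rise in DKO than in SCR (-0.49), from a higher DMSO level. MMP13 and MMP10 rose in SCR and were not called in DKO, with differences of -4.99 and -3.27, both with few counts: the DKO libraries held at most 2 counts of MMP13 and at most 10 of MMP10. MMP2 was the exception in direction, with a larger effect in DKO than in SCR (0.36).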

How the results depend on the processing

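Of 3270 alternative values of the 9 genes, 3133 kept their direction and their side of the threshold, 62 lost a call, 25 gained one and 50 changed sign, and none of those 50 was called. An uncalled value that rounded to 0 in either fit was counted as keeping its direction, whatever its sign. The calls that single libraries decide are given beside each gene. Counts of called genes among the 9 moved most where few were called. STING minus SCR gave 1 after thinning to equal depth. DKO minus MAVS gave 2 with no filter on low counts or after thinning, and 0 with DESeq2. With single libraries left out, the counts ran from 3 to 5 for MAVS against SCR after MPS1i, 1 to 3 for STING minus SCR and for MAVS minus SCR, 0 to 2 for DKO minus STING and 0 to 3 for DKO minus MAVS. DESeq2 gave no adjusted p for 26 values. MMP10, at most 0.45 CPM in any library, did not pass the filter of at least 1 CPM in at least 2 libraries, so that alternative gave no values for it. No alternative moved the median of all genes by more than 0.038 (log2), the value without DKO DMSO replicate 1. RLE factors and DESeq2 each moved it by at most 0.012.

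Same-numbered replicates did not deviate together (28 correlations between groups, from -0.05 to 0.09, median 0.02), so numbers were not used as pairs. A replicate block called PLAU in SCR (adjusted p = 0.049), left every other call of the 9 genes as it was, and moved the genes called in SCR from 8983 to 9008.

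Over all genes, fitting only the compared groups called 1624 in DKO after MPS1i against 2648. Leaving out single libraries lowered the count to as few as 1418 for that comparison, to 3403 from 5269 for the drug in STING, to 913 from 1826 for STING and 344 from 1177 for MAVS against SCR under DMSO, to 1769 from 2859 for MAVS against SCR after MPS1i, to 858 from 1336 for MAVS minus SCR and to 535 from 848 for DKO minus STING. STING minus MAVS ran from 371 to 1057, against 700.

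Uncalled values that changed sign, as log2 values, were as follows. MMP7 in SCR was -0.01 with no filter, with the replicate block and with only the compared groups. After thinning, MMP13 in DKO was -0.01, MMP7 in STING against SCR under DMSO 0.36, MMP10 in STING against SCR after MPS1i 0.23, MMP13 and MMP7 in MAVS minus SCR 0.27 and -0.3, and PLAU 0.01 in DKO against SCR after MPS1i (also with no filter) and in DKO minus MAVS. With single libraries left out, drug effects ran from -0.46 to 0.37 (MMP7 in SCR), -0.43 to 0.87 (MMP10 in MAVS), -0.46 to 0.39 (MMP7 in MAVS), and in DKO from -0.04 to 3.84 (MMP13), -0.26 to 0.04 (MMP7), -0.15 to 0.08 (MMP14), -0.02 to 0.1 (PLAU) and -0.04 to 0.2 (ATF3). Line differences ran from -0.16 to 1.83 (MMP10) and -0.45 to 0.09 (MMP7) for STING under DMSO, -0.4 to 0.14 (MMP10) for STING, -0.21 to 0.78 (MMP7) for MAVS and -0.07 to 0.05 (PLAU) for DKO after MPS1i. Differences of drug effects ran from -1.93 to 0.07 (MMP10, STING minus SCR), -1.45 to 2.82 (MMP13) and -0.48 to 0.51 (MMP7) for MAVS minus SCR, -0.48 to 0.36 (MMP7, DKO minus SCR), -0.5 to 0.35 (MMP7), -0.19 to 0.06 (MMP14) and -0.08 to 0.04 (PLAU) for DKO minus MAVS, and -0.78 to 3.49 (MMP13) and -0.06 to 0.15 (PLAT) for STING minus MAVS. The cause was not tested. Depth limits MMP13 and MMP10, which had few counts.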

Other observations

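MMP7, MMP10, MMP1 and MMP13 belong to a run of 9 metalloproteinase genes on the minus strand of chromosome 11, between positions 102520508 and 102955732 (GRCh38). Their neighbours in that run were near 0 in every library. MMP20 reached 2 counts, MMP27 and MMP8 reached 1, MMP3 reached 4 and MMP12 reached 7, against up to 102 counts for MMP7, 16 for MMP10, 213 for MMP1 and 257 for MMP13. Within the run, the library with the highest CPM was a DKO MPS1i library for MMP1, a DKO DMSO library for MMP7 and an SCR MPS1i library for MMP13. Outside it, MMP9, the other gelatinase, had at most 3 counts in any library.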
